A study of Mus musculus with 12 samples.

Results

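The transcription factors described here are 10 genes that build and maintain the pancreatic beta cell: Pdx1, Mafa, Neurod1, Nkx6-1, Nkx2-2, Isl1, Pax6, Foxa2, Rfx6 and Insm1. They were taken by gene symbol from the array annotation, and each was measured by 1 probe set, a set of probes for the same transcript. They are 10 of the 19938 genes tested. All 10 lay in the brightest 25% of genes by mean signal.

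The 12 samples were MIN6 cells, an insulin-producing line derived from a mouse insulinoma, with RNA read on Affymetrix arrays. The study asked how knocking down Hes3, a transcriptional repressor of the Hes family, alters gene expression under different culture conditions. Every well held 50000 cells and received siRNA at 2 µM, either against Hes3 or scrambled, and cells were assayed 12 to 24 h after transfection. In CC the cells were in medium with serum at 20% oxygen, and in DC they were in serum-free medium at 5% oxygen, so that serum and oxygen cannot be told apart. There were 2 arrays of CC with Hes3 siRNA, 2 of CC with scrambled siRNA, 4 of DC with Hes3 siRNA (numbered 1, 2, 5 and 7) and 4 of DC with scrambled siRNA. All cells shared the same line, an initial culture in serum, the transfection reagent and a single experiment, so p-values measure the spread between these samples, which may be technical.

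Beta cell identity rests on a network of factors that bind each other's genes as well as the insulin gene. Foxa2, Rfx6 and Insm1 act from early pancreatic and endocrine development onwards. Pdx1, Neurod1 and Mafa bind the insulin promoter, Nkx6-1 and Nkx2-2 keep beta cells from taking on other islet fates, and Isl1 and Pax6 are needed in several islet cell types. Hes-family proteins repress genes by binding N boxes and class C sites, and are best known for holding back proneural basic helix-loop-helix genes, the family to which Neurod1 belongs.

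The promoters of 2 factors are shown because their signals stood at opposite ends of the results: Neurod1 had the largest difference between siRNA labels, being lower in DC with Hes3 siRNA, and Isl1 had the largest rise from CC to DC. The 250 bases before each transcription start are from RefSeq on build GRCm38.p6, at chr2:79456637-79456886 for Neurod1 and chr13:116309689-116309938 for Isl1, both on the minus strand and written 5′ to 3′. Capitals mark a match to the class C site CACGNG on either strand. The files bear on RNA and not on binding.
Neurod1: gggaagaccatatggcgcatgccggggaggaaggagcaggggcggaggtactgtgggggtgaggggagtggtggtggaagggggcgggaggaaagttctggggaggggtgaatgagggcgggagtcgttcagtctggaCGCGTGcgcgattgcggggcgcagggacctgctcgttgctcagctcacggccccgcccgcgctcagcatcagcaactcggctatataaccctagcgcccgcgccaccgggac
Isl1: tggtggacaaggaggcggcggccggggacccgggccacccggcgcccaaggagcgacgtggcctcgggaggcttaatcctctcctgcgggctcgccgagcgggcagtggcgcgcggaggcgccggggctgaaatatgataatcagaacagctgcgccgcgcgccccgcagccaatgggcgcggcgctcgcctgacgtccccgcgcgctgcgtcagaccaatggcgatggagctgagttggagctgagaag
The Neurod1 window held 1 class C match and no N box (CACNAG), and the Isl1 window held neither. Of 32851 RefSeq windows of 250 bases, 36.7% held an N box and 23.5% a class C site on either strand, and a CACGAG counts as both. The E box CAGATG, a Neurod1 motif, was in 14.4% of windows. Of the 10 factors, 8 had windows in the table, 11 in all. The Nkx6-1 window held 1 N box and 2 class C matches, the Rfx6 window 1 of each, and the Pdx1 window 1 class C match. The Nkx2-2 window held 1 class C match and the only E box among the 11 windows. A Pax6 window and a Foxa2 window held 1 N box each. A match is a run of letters and no evidence of binding.

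The Hes3 probe set was not lower in arrays labelled Hes3 siRNA. Its log2 signal was 7.22 and 7.23 in CC with Hes3 siRNA, 7.23 and 6.82 in CC with scrambled siRNA, 7.37, 7.36, 7.38 and 7.25 in DC with Hes3 siRNA, and 7.10, 7.24, 7.19 and 7.22 in DC with scrambled siRNA. The difference, Hes3 siRNA minus scrambled, was 0.20 ± 0.11 (SE) in CC (limma adjusted p = 1, rounded) and 0.15 ± 0.077 in DC (adjusted p = 0.114). The probe set lay in the second-dimmest 25% of genes. In DC the median difference of that 25% was 0.21, and 56.9% of its genes were higher with the Hes3 label. Whether Hes3 RNA fell cannot be read from this probe set, so the groups are named by their labels throughout. In DC, arrays 1 and 5 labelled Hes3 siRNA stood apart: the brightest 25% of genes lay 0.164 and 0.133 below its usual level there. In arrays 2 and 7 it lay 0.059 and 0.073 below. Levels are medians over genes of log2 signal minus the gene's mean. Array 2 of CC with scrambled siRNA was displaced the other way, with the brightest 25% at 0.136 and the dimmest 25% at −0.133. Within groups, arrays correlated at 0.980 to 0.996 over all genes. The beta cell markers matched the line's label: 6 of 8 were in the brightest 25%, and their mean log2 signal ran from 11.2 to 11.4 over the 12 arrays. Nkx6-1, itself a factor described here, is among those 6. Some markers of other islet cells were bright as well. Mean log2 signals were 11.9 for Gcg (glucagon), 12.6 for Ttr and 11.5 for Sst (somatostatin). In the brightest 25% were 3 of 5 alpha markers and 1 of 5 delta, PP and epsilon markers. Of the latter 5, 2 were in the dimmest 25%. The beta cell markers Slc2a2, a glucose transporter, and Ucn3, a peptide of mature beta cells, were dim at 7.65 and 7.34.

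**Figure D1:**
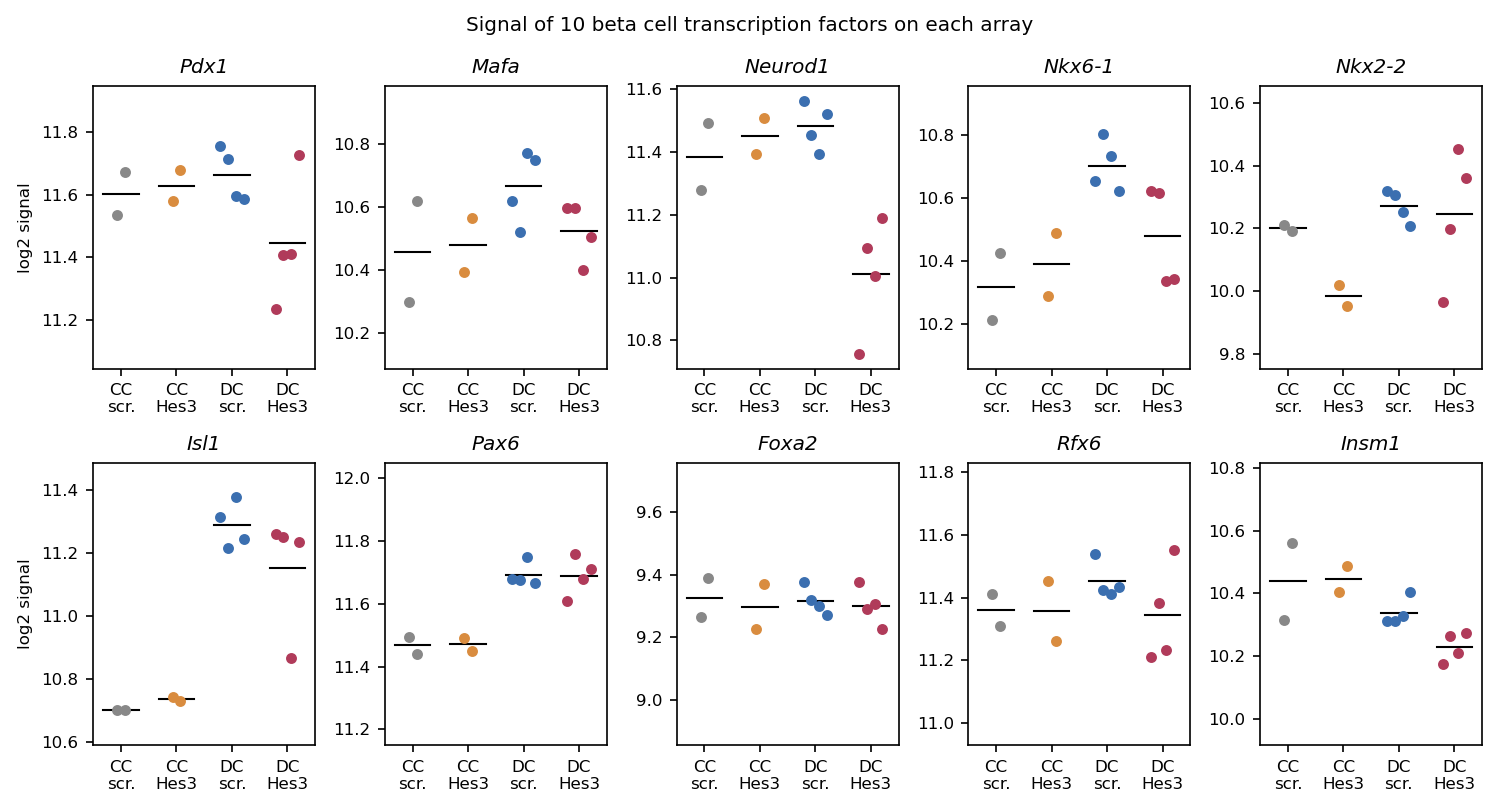
Log2 signal of each of the 10 factors in each of the 12 arrays, by group, with group means. Isl1 and Pax6 sit higher in all 8 DC arrays than in all 4 CC arrays. The lowest signals of Neurod1 and of Insm1 belong to the 4 arrays of DC with Hes3 siRNA, where bright genes at large were lower too. How many of all genes share these patterns was not counted.

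From CC to DC with scrambled siRNA, the LIM-homeodomain factor Isl1 had the largest difference of the 10. Isl1 partners Ldb1 and Neurod1 on endocrine gene enhancers. Its log2 signal was 10.70 in both CC arrays with scrambled siRNA, 10.74 and 10.73 in CC with Hes3 siRNA, 11.31, 11.22, 11.38 and 11.25 in DC with scrambled siRNA, and 11.26, 11.25, 10.87 and 11.24 in DC with Hes3 siRNA. All 8 DC arrays lay above all 4 CC arrays. How many of all genes separate in this way was not counted. Within 1 siRNA label, DC and CC arrays did not overlap for 27.9% of all genes (scrambled) and 61.8% (Hes3). In bulk RNA a change in the share of cells that express a gene and a change in RNA per cell cannot be told apart. With scrambled siRNA the signal rose by 0.59 ± 0.099 (SE; 95% interval 0.38 to 0.80, limma adjusted p = 0.0012), which is 50.4% on the linear scale. With Hes3 siRNA it rose by 0.42 ± 0.099 (0.21 to 0.63, adjusted p = 0.0053), or 33.7%. Array 5 labelled Hes3 siRNA held the lowest DC value. The rise with scrambled siRNA passed the test without each array in turn, at 0.56 to 0.61, and the rise with Hes3 siRNA did not pass without CC array 2 (adjusted p = 0.057).

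Pax6, a paired-homeodomain factor of all islet endocrine cells, also had higher signals in DC. Its log2 signals were 11.49 and 11.44 in CC with scrambled siRNA and 11.49 and 11.45 in CC with Hes3 siRNA. In DC they were 11.68, 11.68, 11.75 and 11.67 with scrambled siRNA and 11.61, 11.76, 11.68 and 11.71 with Hes3 siRNA. The 8 DC arrays again lay above the 4 CC arrays, a separation whose share over all genes was not counted. The difference was almost the same with both siRNAs, 0.22 ± 0.067 in each, or 16.8% and 16.4%. With Hes3 siRNA it passed the test (95% interval 0.076 to 0.36, adjusted p = 0.0201), and with scrambled siRNA it narrowly missed it (0.081 to 0.37, adjusted p = 0.051). That miss turned into a pass under quantile normalization (0.28, adjusted p = 0.0194) and cyclic loess (0.25, adjusted p = 0.0233), and in none of the 6 fits without 1 array. The call with Hes3 siRNA was lost after median centring (0.11, adjusted p = 0.247), and without CC array 1 (0.24, adjusted p = 0.0814) or CC array 2 (0.20, adjusted p = 0.146) labelled Hes3 siRNA.

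Nkx6-1, a homeodomain repressor that marks beta cells within the islet, rose with scrambled siRNA. Its log2 signals were 10.21 and 10.42 in CC and 10.65, 10.80, 10.73 and 10.62 in DC with scrambled siRNA, and the arrays did not overlap. The rise was 0.39 ± 0.10 (95% interval 0.17 to 0.60, adjusted p = 0.026), or 30.6%. With Hes3 siRNA the signals were 10.29 and 10.49 in CC and 10.62, 10.62, 10.34 and 10.34 in DC, and the arrays overlapped. That difference was 0.090 ± 0.10 (−0.13 to 0.31, adjusted p = 0.47). The rise with scrambled siRNA was less firm than that of Isl1: it passed in 3 of 6 fits that left out 1 array, not without CC array 1 or DC arrays 2 or 3, with values of 0.28 to 0.49, and missed the threshold after median centring (0.35, adjusted p = 0.0648).

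Of the 10 factors, 2 were thus higher in DC with scrambled siRNA and 0 lower. Over all genes 3.09% were higher and 5.45% lower, 8.54% in all, and in the brightest 25% 6.92% were higher. The median difference of the 10 factors was 0.095, against 0.019 over all genes and −0.039 over the brightest 25%. With Hes3 siRNA, 2 factors were higher (Isl1 and Pax6) and 2 lower (Neurod1 and Insm1), where 40.1% of all genes were called, 21.2% higher and 18.8% lower. In that comparison the brightest 25% fell, with a median of −0.19, 44.5% of its genes lower and 9.15% higher, while the 10 factors had a median of 0.023. The arrays of the groups did not overlap for 27.9% of all genes with scrambled siRNA and for 61.8% with Hes3 siRNA.

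**Figure D2:**
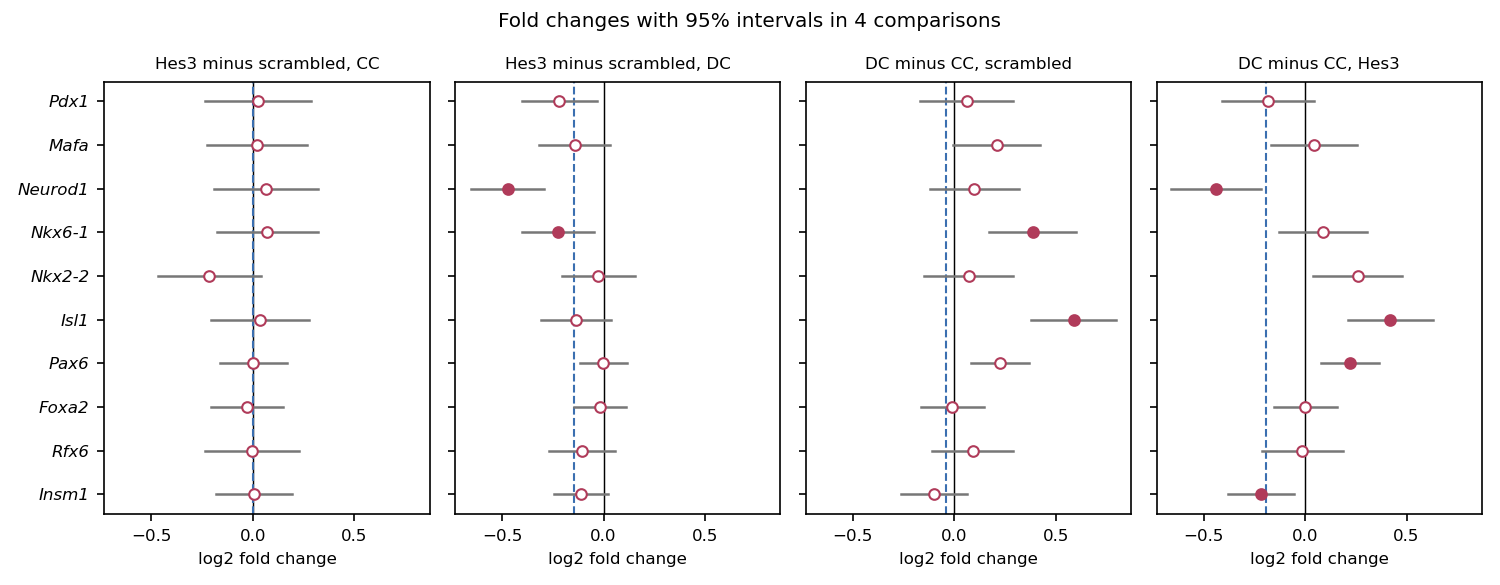
Log2 fold change of each factor with its 95% interval in each comparison, filled where the limma adjusted p was under 0.05, with a dashed line at the median of the brightest 25% of genes. Isl1 lies right of 0 in both DC against CC panels, and Neurod1 lies farthest left in the DC siRNA panel at −0.47.

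Insm1, a zinc-finger repressor that acts in endocrine development, was lower in DC with Hes3 siRNA. Its log2 signals were 10.40 and 10.49 in CC and 10.17, 10.26, 10.21 and 10.27 in DC with that siRNA, and 10.32 and 10.56 in CC and 10.31, 10.31, 10.33 and 10.40 in DC with scrambled siRNA. In 6 of 8 DC arrays it lay below all CC arrays. For DC arrays 1 and 2 with scrambled siRNA the gap was slight, at 10.3115 and 10.3116 against a lowest CC value of 10.3155. How many of all genes reach such a count was not examined. The fall with Hes3 siRNA was −0.22 ± 0.077 (95% interval −0.38 to −0.053, adjusted p = 0.0365). The median gene of the brightest 25% fell by nearly as much, with −0.19, and the Insm1 difference shrank to −0.042 under quantile normalization (adjusted p = 0.675) and −0.048 under cyclic loess (adjusted p = 0.587). It passed in 2 of 6 fits without 1 array. With scrambled siRNA the difference was −0.099 ± 0.077 (adjusted p = 0.561). Between labels in DC the Insm1 difference was −0.11 ± 0.062 (limma adjusted p = 0.153). Those groups did not overlap, as for 40.9% of all genes.

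Neurod1, the basic helix-loop-helix activator of the insulin promoter, had the largest difference between the siRNA labels. In DC its log2 signals were 10.76, 11.09, 11.01 and 11.19 with Hes3 siRNA and 11.56, 11.45, 11.39 and 11.52 with scrambled siRNA. All 4 arrays labelled Hes3 siRNA lay below all 4 scrambled arrays, and these groups did not overlap for 40.9% of all genes. The difference was −0.47 ± 0.085 (95% interval −0.65 to −0.29, limma adjusted p = 0.0030), a signal 27.9% lower. In CC the signals were 11.39 and 11.51 with Hes3 siRNA and 11.28 and 11.49 with scrambled siRNA, which overlap, and the difference was 0.066 ± 0.12 (−0.19 to 0.32). The 4 arrays of DC with Hes3 siRNA held the lowest Neurod1 signals of the 12, as they did for Insm1. From CC to DC the signal fell by 0.44 ± 0.10 with Hes3 siRNA (adjusted p = 0.0055), and moved by 0.099 ± 0.10 with scrambled siRNA (adjusted p = 0.697). The fall and the difference between labels share the same 4 arrays.

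The Neurod1 difference in DC passed the test in all 8 fits that left out 1 array, at −0.53 to −0.39. It was −0.34 without arrays 1 and 5 labelled Hes3 siRNA (adjusted p = 0.049), −0.32 after quantile normalization (adjusted p = 0.0061), −0.33 after cyclic loess (adjusted p = 0.0064) and −0.54 after median centring. The siRNA difference in DC minus that in CC was −0.54 ± 0.15 (95% interval −0.85 to −0.23), with an unadjusted p = 0.0022 and an adjusted p = 0.179 by limma over all genes. The siRNA differences in the 2 cultures are therefore not shown to differ for Neurod1, although this passed without CC array 2 with scrambled siRNA (−0.64, adjusted p = 0.0242), a fit in which 10.3% of all genes passed. The fall from CC to DC with Hes3 siRNA was −0.23 after quantile normalization (adjusted p = 0.0565), and did not pass without CC array 2 (adjusted p = 0.0808).

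Nkx6-1 was the other factor lower in DC arrays labelled Hes3 siRNA, with a difference of −0.22 ± 0.083 (95% interval −0.40 to −0.047, adjusted p = 0.0386) or 14.4%. The groups overlapped, with 3 of 4 arrays labelled Hes3 siRNA under the lowest scrambled array. This call was lost under quantile normalization (−0.088, adjusted p = 0.415), cyclic loess (−0.081, adjusted p = 0.485) and without arrays 1 and 5 (−0.22, adjusted p = 0.139). It was also lost without DC array 5 or 7 labelled Hes3 siRNA, or DC array 1, 2 or 3 with scrambled siRNA.

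In DC, 2 of the 10 factors were therefore lower in arrays labelled Hes3 siRNA and 0 higher. Over all genes 47.2% were called, 28.9% higher and 18.3% lower, and in the brightest 25% 40.9% were lower and 2.39% higher. A count of 2 in 10 is near the 18.3% of all genes and under the share of the bright genes. All 10 factors had lower means with the Hes3 label, with a median difference of −0.12 against −0.15 for the brightest 25% and 0.064 for all genes. These directions followed the scaling: 6 of the 10 turned positive under quantile normalization and 7 under cyclic loess, while Neurod1, Nkx6-1 and Pdx1 kept theirs under both. Markers of other tissues moved with the label in DC. The mean log2 signal of 6 fibroblast markers was 8.04 to 8.30 with Hes3 siRNA and 7.81 to 7.89 with scrambled siRNA, and 5 of the 6 were higher. For 5 acinar markers it was 7.45 to 7.71 against 7.22 to 7.36, and 5 of 5 were higher. None of either list was in the brightest 25%, and their part in the results was not tested. In DC arrays without numbers 1 and 5, 0 of the 6 fibroblast and 0 of the 5 acinar markers were higher. Under quantile normalization 4 and 3 were. Of the other marker lists, 4 of 5 delta, PP and epsilon, 3 of 5 duct, and 3 of 6 macrophage and endothelium markers were higher with the Hes3 label. Among 5 alpha markers 2 were higher and 1 lower, and among 8 beta markers 2 were higher and 3, Nkx6-1 included, lower. Dim genes at large were higher too: of the second-dimmest 25% of genes, 56.9% were higher, with a median of 0.21.

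**Figure D3:**
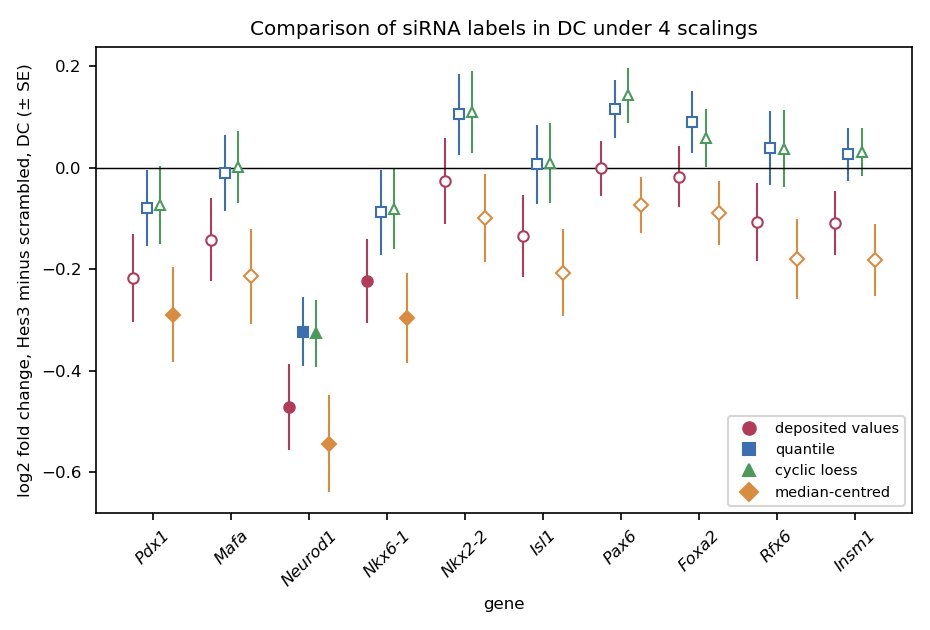
Difference between siRNA labels in DC for each factor under 4 scalings of the arrays, as log2 fold change with SE, filled where the adjusted p was under 0.05. Neurod1 is filled under each scaling, from −0.54 to −0.32, and the other factors crowd around 0 under quantile normalization and cyclic loess.

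Pdx1, the homeodomain activator of the insulin gene and of pancreas formation, missed the threshold in DC. Its log2 signals were 11.24, 11.41, 11.41 and 11.73 with Hes3 siRNA and 11.76, 11.71, 11.60 and 11.58 with scrambled siRNA. Array 7 lay among the scrambled arrays and the other 3 below them. The difference was −0.22 ± 0.087 (95% interval −0.40 to −0.032, adjusted p = 0.0511). It passed without array 7 (−0.31, adjusted p = 0.0042), after median centring (−0.29, adjusted p = 0.0268) and with the trend and robust settings of limma (−0.22, adjusted p = 0.048). In CC the signals were 11.58 and 11.68 with Hes3 siRNA and 11.53 and 11.67 with scrambled siRNA, and the difference was 0.026 ± 0.12.

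Mafa, the bZIP activator that marks mature beta cells, passed in no comparison. Its log2 signals were 10.39 and 10.57 in CC with Hes3 siRNA, 10.30 and 10.62 in CC with scrambled siRNA, 10.60, 10.60, 10.40 and 10.51 in DC with Hes3 siRNA, and 10.62, 10.52, 10.77 and 10.75 in DC with scrambled siRNA. The groups overlapped in each comparison. The difference between labels in DC was −0.14 ± 0.082 (95% interval −0.32 to 0.032, adjusted p = 0.156), and that of DC against CC with scrambled siRNA was 0.21 ± 0.10 (−0.0049 to 0.42, adjusted p = 0.269).

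Nkx2-2, a homeodomain factor that sits with repressor complexes in beta cells, had its lowest group mean in CC with Hes3 siRNA. The log2 signals there were 10.02 and 9.95, against 10.21 and 10.19 in CC with scrambled siRNA, 9.97, 10.20, 10.45 and 10.36 in DC with Hes3 siRNA, and 10.32, 10.31, 10.25 and 10.21 in DC with scrambled siRNA. The CC groups did not overlap, as for 26.9% of all genes. The difference was −0.22 ± 0.12 (95% interval −0.47 to 0.038), with an unadjusted p = 0.0908 by limma. From CC to DC with Hes3 siRNA it was 0.26 ± 0.10 (adjusted p = 0.0567), and this passed under quantile normalization (0.41, adjusted p = 0.007) and cyclic loess (0.42, adjusted p = 0.007).

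Rfx6, a winged-helix factor of the endocrine lineage, and Foxa2, a forkhead factor that opens chromatin in endoderm, passed in no comparison. Rfx6 had log2 signals of 11.45 and 11.26 in CC with Hes3 siRNA, 11.41 and 11.31 in CC with scrambled siRNA, 11.21, 11.38, 11.23 and 11.55 in DC with Hes3 siRNA, and 11.54, 11.42, 11.41 and 11.43 in DC with scrambled siRNA. The values of the DC arrays labelled Hes3 siRNA ran past the scrambled arrays on both sides. The largest Rfx6 difference was −0.11 ± 0.077 between labels in DC (95% interval −0.27 to 0.056, adjusted p = 0.246). It was −0.18 without array 7 labelled Hes3 siRNA, where it passed (adjusted p = 0.0453), and −0.063 and −0.070 without arrays 1 and 5 in turn. Foxa2 stayed between 9.23 and 9.39 in all 12 arrays, and its 4 group means spanned 0.029. Its intervals bound the difference between labels in DC to −0.14 to 0.11 and that of DC against CC with scrambled siRNA to −0.16 to 0.15.

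Between the siRNA labels in CC, 0 of the 10 factors and 0 of all genes passed (limma), with 0 factors and 415 genes at an unadjusted p under 0.05. In CC 7 of the 10 means were higher with the Hes3 label, with differences of −0.22 to 0.072. With 2 arrays a group the intervals were wide, for example −0.18 to 0.32 for Nkx6-1 and −0.16 to 0.17 for Pax6. The 2 arrays of each CC group ran in parallel: array 1 was below array 2 for the same 6 factors in both groups (Pdx1, Mafa, Neurod1, Nkx6-1, Foxa2 and Insm1) and above it for the other 4. The brightest 25% of genes, which holds all 10, was also lower in array 1. Its median deviation was 0.054 against 0.092 with Hes3 siRNA and 0.012 against 0.136 with scrambled siRNA. The share of all genes that agree in this way was not counted. For the difference of the siRNA contrasts, limma called 0 of the 10 factors and 0 of all genes, with 1 factor, Neurod1, and 3471 genes at an unadjusted p under 0.05. The next factors were Nkx6-1 at −0.30 ± 0.14 (adjusted p = 0.301) and Pdx1 at −0.24 ± 0.15 (adjusted p = 0.386).

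**Figure D4:**
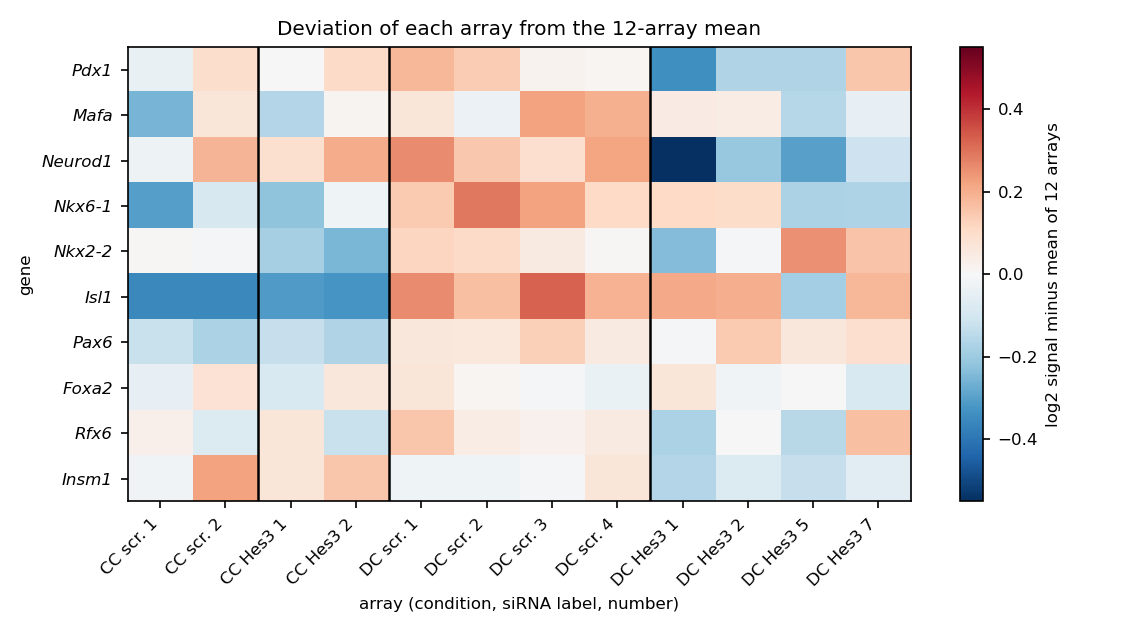
Log2 signal of each factor in each array minus that factor's mean over the 12 arrays. Isl1 is below its mean in the 4 CC arrays and above it in DC except in array 5 labelled Hes3 siRNA. Neurod1 and Insm1 are lowest in the 4 arrays of DC with Hes3 siRNA, where bright genes at large were lower too. Foxa2 is nearly even throughout.

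The order of the group means differed between factors. Isl1, Pax6, Nkx6-1 and Mafa shared the order CC with scrambled siRNA, CC with Hes3 siRNA, DC with Hes3 siRNA and DC with scrambled siRNA, from low to high. The lowest neighbours in that order did not differ past the test for any of them, the highest differed for Nkx6-1, and the middle step passed for Isl1 and Pax6. Pdx1 and Neurod1 shared another order, with DC with Hes3 siRNA lowest and DC with scrambled siRNA highest. Patterns were compared by the root mean square difference of centred log2 signals over the 12 arrays. Among factor pairs this was smallest for Foxa2 and Insm1 (0.110), Pdx1 and Rfx6 (0.114) and Mafa and Nkx6-1 (0.119). The value for Foxa2 and Insm1 is no smaller than the spread of Insm1 about its own mean (0.106), so they share no more than little variation. The difference was largest for Neurod1 and Isl1 (0.380). DC array 1 labelled Hes3 siRNA held the lowest of the 12 values for 4 factors, Pdx1, Neurod1, Rfx6 and Insm1.

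By the same measure over all named genes, the patterns closest to Neurod1 were those of As3mt (0.052), an arsenic methyltransferase, Ppip5k2 (0.054), an inositol pyrophosphate kinase, and Npat (0.057), a histone gene coactivator, against 0.24 for the spread of Neurod1 itself. Closest to Isl1, with a spread of 0.27, were Astn1 (0.087), Rangrf (0.089) and Slc30a8 (0.092), the zinc transporter of insulin granules. Closest to Nkx6-1, with a spread of 0.18, were Pimreg (0.053), Xab2 (0.065) and Dpysl2 (0.070). For Pax6 (spread 0.11) they were Abcb8 (0.037), Kctd8 (0.039) and Whamm (0.045), and for Insm1 (spread 0.11) Terf2 (0.034), Mocs2 (0.034) and Farsb (0.037). These describe 12 arrays that share scaling and groups.

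Among 31 other islet transcription factors, 2 rose and 2 fell from CC to DC with scrambled siRNA, beside 3.09% and 5.45% of all genes, with a median of 0.086. Zbtb20, a zinc-finger repressor (0.55 ± 0.12, adjusted p = 0.0088), and Esrrg, a nuclear receptor of mature beta cells (0.44 ± 0.086, adjusted p = 0.0040), rose. Bhlha15, a basic helix-loop-helix factor of secretory cells (−0.74 ± 0.11, adjusted p = 0.0006), and Glis3, a zinc-finger activator of insulin (−0.38 ± 0.074, adjusted p = 0.0037), fell. Without CC array 2 with scrambled siRNA 0 of the 31 rose past the test. With Hes3 siRNA 12 rose and 4 fell, beside 21.2% and 18.8% of all genes. Bhlha15 (−0.66), Glis3 (−0.26) and the ETS factor Etv1 (−0.29) fell, and Pax4, a paired-homeodomain factor of beta cell development (0.40 ± 0.094, adjusted p = 0.0052), Esrrg (0.37) and Myt1 (0.35) rose. That split was 8 against 1 under quantile normalization and cyclic loess, and 3 against 4 after median centring, which moved the median of all genes from 0.091 to −0.020. It was 0 against 1 without CC array 2 and 2 against 1 without CC array 1, and the count rising was 7 without DC array 1 and 5 without DC array 5.

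Between the siRNA labels in DC, 13 of these 31 factors were higher and 6 lower, beside 28.9% and 18.3% of all genes. Zbtb20 (−0.56 ± 0.10, adjusted p = 0.0030), the glucocorticoid receptor Nr3c1 (−0.36 ± 0.087, adjusted p = 0.0073) and Prox1 (−0.34 ± 0.073, adjusted p = 0.0047) were lower. The alpha cell factors Irx1 (0.37 ± 0.091, adjusted p = 0.0072) and Irx2 (0.27 ± 0.065, adjusted p = 0.0070), and Nr5a2 (0.27 ± 0.069, adjusted p = 0.0088), were higher. The 6 lower calls stood at 6 under quantile normalization, cyclic loess and median centring, while the higher ones dropped to 8, 5 and 5. Without arrays 1 and 5 labelled Hes3 siRNA none of the 31 passed, and Zbtb20 stood at −0.35. The higher calls numbered 8 without array 1 alone, and 6 without array 1 or array 4 with scrambled siRNA. In CC limma called 0 of the 31, none with an unadjusted p under 0.05, and the smallest p was that of Gata4 (0.15 ± 0.090, adjusted p = 1, rounded).

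Partners and cofactors of the 10 factors, among them the E proteins that pair with Neurod1, the Ldb and Ssbp proteins that pair with Isl1, and Groucho (Tle) corepressors of Nkx factors, counted 32 measured genes. From CC to DC with scrambled siRNA, 5 rose and 0 fell, beside 3.09% and 5.45% of all genes, with a median of 0.098. Tle3 (0.42 ± 0.073, adjusted p = 0.0014) and the acetyltransferases Crebbp (0.34 ± 0.077, adjusted p = 0.0099) and Ep300 (0.34 ± 0.076, adjusted p = 0.0092) rose most. The count rising was 3 after median centring, 7 to 8 under quantile normalization and cyclic loess, and 1 without CC array 2 with scrambled siRNA. It was 3 without CC array 1 or DC array 2, 3 or 4. With Hes3 siRNA 7 rose and 8 fell, beside 21.2% and 18.8% of all genes, with Tle3 (0.37), Tle2 (0.31) and Crebbp (0.25) up and Tle4 (−0.39), Hdac1 (−0.33) and Ssbp2 (−0.32) down, and this split ran from 11 against 3 under cyclic loess to 1 against 9 after median centring. It was 1 against 2 without CC array 1 and 1 against 0 without CC array 2, and 4 and 3 fell without DC arrays 1 and 5 in turn.

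Between labels in DC, 14 of the 32 partners were lower and 1 higher, beside 18.3% and 28.9% of all genes and 40.9% and 2.39% of the brightest 25%. Their median was −0.12, close to the −0.15 of the brightest 25%. Ssbp2, a partner of Ldb1 (−0.35 ± 0.070, adjusted p = 0.0038), Smarca2, a chromatin remodelling ATPase (−0.30 ± 0.068, adjusted p = 0.0056), and Ep300 (−0.28 ± 0.062, adjusted p = 0.0049) were lowest, and Psmd9, a Pdx1-binding coactivator (0.19 ± 0.062, adjusted p = 0.0251), was higher. The lower count was 5 under quantile normalization, 4 under cyclic loess and 19 after median centring, and 0 without arrays 1 and 5 labelled Hes3 siRNA. Alone, leaving out array 1 gave 8 lower and array 5 gave 7, and leaving out array 1 with scrambled siRNA gave 8. In CC limma called 0 of the 32, none with an unadjusted p under 0.05, and the smallest p was that of Meis1 (−0.19 ± 0.090, adjusted p = 1, rounded).

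Target genes of the factors in beta cells counted 35 measured genes. From CC to DC with scrambled siRNA, 6 rose and 5 fell, beside 3.09% and 5.45% of all genes, with a median of 0.043. Nnat, a membrane proteolipid that aids insulin processing (1.42 ± 0.22, adjusted p = 0.0006), Sytl4, a granule docking protein (0.89 ± 0.11, adjusted p = 0.0001), and Slc30a8 (0.54 ± 0.077, adjusted p = 0.0003) rose most. Cltrn, the collectrin gene (−1.70 ± 0.14, adjusted p = 3.11e-06), Chgb, a granin (−0.45 ± 0.089, adjusted p = 0.0042), and Gjd2, the beta cell gap junction connexin (−0.39 ± 0.10, adjusted p = 0.0267), fell most. The count falling was 2 without CC array 2 or DC array 4 with scrambled siRNA, and 3 without DC array 1 or 2. Alpha markers fell alongside: Gcg with a difference of −0.93 ± 0.12 (adjusted p = 0.0001) and Ttr with −0.81 ± 0.14 (adjusted p = 0.0017), 2 of 5 measured alpha markers, with 1 higher. The mean signal of the 5 was 10.3 in CC with scrambled siRNA and 9.97 to 10.1 in DC, and its part in the Isl1 and Pax6 results was not tested. Ins2, an insulin gene, did not pass (0.029 ± 0.062, adjusted p = 0.875).

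With Hes3 siRNA, 11 of the 35 targets rose and 7 fell from CC to DC, beside 21.2% and 18.8% of all genes. Nnat (0.81 ± 0.22, adjusted p = 0.0108), Sytl4 (0.77) and the incretin receptor gene Gipr (0.50 ± 0.11, adjusted p = 0.0027) rose most, and Cltrn (−2.17 ± 0.14, adjusted p = 2.87e-07), Gjd2 (−0.69) and the glycine transporter gene Slc6a9 (−0.50) fell most. Median centring turned the split to 4 against 11, and it was 5 rising without CC array 1, and 2 against 4 without CC array 2. Between labels in DC, 5 were higher and 7 lower, beside 28.9% and 18.3% of all genes. Nnat (−0.65 ± 0.18, adjusted p = 0.0111), Cltrn (−0.44 ± 0.12, adjusted p = 0.0099) and Pcx, pyruvate carboxylase (−0.34 ± 0.076, adjusted p = 0.0054), were lower. Fgfr1 (0.29 ± 0.068, adjusted p = 0.0062), Vdr (0.25 ± 0.075, adjusted p = 0.0157) and Ucn3 (0.23 ± 0.072, adjusted p = 0.0196) were higher, all dim. Under cyclic loess 0 were higher and 1 lower, and without arrays 1 and 5 none passed. The higher calls numbered 3 without DC array 1 or 5 labelled Hes3 siRNA, or DC array 3 or 4 with scrambled siRNA, and the lower ones 4 without array 5. Ins2, a target of Pdx1, Neurod1 and Mafa, stood at −0.053 ± 0.051 (adjusted p = 0.393). In CC limma called 0 of the 35, with 1 at an unadjusted p under 0.05, Pdk4, a kinase that restrains pyruvate oxidation (0.25 ± 0.083, adjusted p = 1, rounded).

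**Figure D5:**
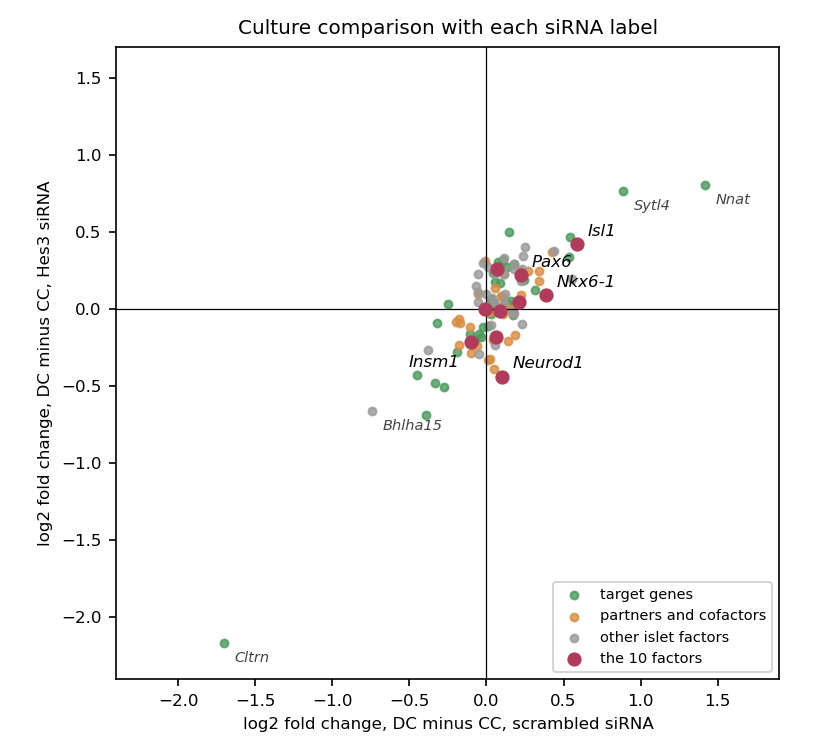
Log2 fold change of DC against CC with scrambled siRNA (x) and with Hes3 siRNA (y) for the 10 factors and the genes of the other lists; both axes rest on separate arrays. Isl1 is high on both axes (0.59 and 0.42), and Neurod1 is near 0 on x (0.099) and low on y (−0.44).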

How the data were processed

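The deposited values, 1 for each probe set in each array, were taken as log2 from their range (3.94 to 14.4), since no label states a unit. The steps by which the authors summarized and normalized the arrays are not given in the sources used here. Of 35556 probe sets, the 2016 platform annotation gave 21789 exactly 1 symbol. The brightest probe set by mean stood for a gene, which left 19938 genes with no filter. Groups came from the sample titles. limma 3.58.1 in R 4.3.3 (lmFit, eBayes) fitted 4 group means over 12 arrays, with 8 residual and 7.62 prior degrees of freedom and 5 contrasts. P-values are two-sided and Benjamini-Hochberg adjusted over all genes, with a threshold of 0.05. On simulated data, 198 of 200 genes changed by 1 log2 unit were recovered in the DC siRNA comparison. Smaller changes, such as those of the factors, and shifts of whole arrays were not simulated. Lists are described by counts and medians. For each list and comparison the 3 largest increases and decreases past the test were named, or the smallest p, and for factors past a test the 3 most alike genes. The members and lists were chosen with earlier results of these data known. Alternatives were quantile, cyclic loess and median scaling, leaving out genes under the 40th percentile, other eBayes settings, the mean of probe sets, a fit on only the arrays compared, a replicate block and left-out arrays. Counts of list genes under these were added after the data were seen. Ins1 was not analysed here. The number of arrays limits precision.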

Additional observations from a re-analysis of the deposited data

Results flagged for a closer look

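Isl1 in DC array 5 labelled Hes3 siRNA, at 10.87, lay far from the other 3 arrays of its group (11.24 to 11.26): the gap was 0.941 of the group's range. Pax6 in DC array 3 with scrambled siRNA, at 11.75, lay above the other 3 (11.67 to 11.68), with a gap of 0.852 of the range. These were 2 of 20 groups of 4 arrays examined, where chance alone gives about 1 in 20.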

How the results depend on the processing

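Between siRNA labels in DC, 2 factors passed, and 1 under quantile normalization, cyclic loess, the replicate block and without DC arrays 1 and 5 labelled Hes3 siRNA. For DC against CC with scrambled siRNA, 2 passed, and 1 after median centring. For DC against CC with Hes3 siRNA, 4 passed, and 2 under the replicate block and in a fit on only the arrays compared. Leaving out single arrays gave 1 to 3, 1 to 2 and 0 to 5 in these comparisons (0 without CC array 2, and 2 without CC array 1, labelled Hes3 siRNA), and 0 to 1 for the difference of the siRNA contrasts. In CC 0 passed under each alternative. Without arrays 1 and 5 the calls over all genes in DC dropped from 9408 to 331, and under the replicate block to 620. Same-numbered arrays deviated together in CC (correlation over genes 0.253) and apart in DC (−0.368 and −0.327), so the numbers were not taken to pair the samples. Under the block the Neurod1 difference in DC was −0.58 (adjusted p = 0.0334) and that of Nkx6-1 −0.11 (adjusted p = 0.461). Arrays whose number has no counterpart in another group add nothing to the block fit. Its group differences, and its calls over all genes, thus rest on arrays 1 and 2 of each group. The cause of each move was not tested.

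Signs reversed only for differences past no test. After median centring these were, for DC against CC with Hes3 siRNA, Mafa −0.066, Nkx6-1 −0.021 and Foxa2 −0.11, for labels in CC, Rfx6 0.00058, and for the difference of the siRNA contrasts, Foxa2 −0.066. Under cyclic loess they were, for DC against CC with Hes3 siRNA, Pdx1 0.018 and Rfx6 0.18, with scrambled siRNA, Foxa2 0.0090, for labels in CC, Pdx1 −0.0012 and Pax6 −0.026, for labels in DC, Mafa 0.00074, Nkx2-2 0.11, Isl1 0.0098, Pax6 0.14, Foxa2 0.058, Rfx6 0.037 and Insm1 0.031, and for the difference, Pax6 0.17, Rfx6 0.063 and Insm1 0.017. Under quantile normalization they were, for DC against CC with Hes3 siRNA, Pdx1 0.030 and Rfx6 0.19, with scrambled siRNA, Foxa2 0.016, for labels in CC, Pdx1 −0.012, Pax6 −0.011 and Foxa2 0.0081, for labels in DC, Nkx2-2 0.10, Isl1 0.0062, Pax6 0.12, Foxa2 0.090, Rfx6 0.039 and Insm1 0.026, and for the difference, Pax6 0.13, Rfx6 0.055 and Insm1 0.024. With the replicate block they were, for DC against CC with scrambled siRNA, Foxa2 0.021, for labels in DC, Mafa 0.026 and Pax6 0.0075, and for the difference, Mafa 0.0033, Nkx2-2 −0.016 and Pax6 0.0050. Without arrays 1 and 5 they were, for DC against CC with Hes3 siRNA, Foxa2 −0.040 and Rfx6 0.11, for labels in DC, Nkx2-2 0.0081, Pax6 0.043 and Rfx6 0.015, and for the difference, Pax6 0.041, Foxa2 −0.031 and Rfx6 0.019.

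Leaving out single arrays turned these ranges across 0. For DC against CC with Hes3 siRNA they were Mafa −0.043 to 0.13, Nkx6-1 −0.010 to 0.19, Foxa2 −0.070 to 0.074 and Rfx6 −0.11 to 0.082. With scrambled siRNA they were Pdx1 −0.0082 to 0.13, Neurod1 −0.0078 to 0.21, Foxa2 −0.072 to 0.053 and Insm1 −0.22 to 0.023. For labels in CC they were Pdx1 −0.042 to 0.094, Mafa −0.14 to 0.18, Neurod1 −0.041 to 0.17, Nkx6-1 −0.035 to 0.18, Pax6 −0.024 to 0.029, Foxa2 −0.10 to 0.043, Rfx6 −0.099 to 0.091 and Insm1 −0.11 to 0.13. For labels in DC they were Nkx2-2 −0.096 to 0.066, Pax6 −0.025 to 0.025 and Foxa2 −0.043 to 0.0066, and for the difference, Pax6 −0.031 to 0.023, Foxa2 −0.061 to 0.083 and Insm1 −0.24 to 0.0055. Over all member results and alternatives, 663 values kept their direction and side of the threshold, 30 lost their call, 15 gained one and 92 changed sign.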
